A study of Mus musculus with 6 samples.

Results

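The genes described here are Trp53, which encodes the transcription factor p53, and 8 genes known as p53 targets: Mdm2, Ccng1, Phlda3, Perp, Trp53inp1, Sesn1, Sesn2 and Zmat3. They were taken by symbol from the deposited table of raw read counts, where all 9 were found among 38561 genes. RNA sequencing measured them in mouse embryonic stem cell (ESC) cultures sorted by flow cytometry on 2 surface proteins, PECAM1, an adhesion molecule found on undifferentiated ESCs, and PDGFRa, which binds platelet-derived growth factor. The series title presents the PDGFRa-positive cells as a culture model of cells that give rise to primitive endoderm, the layer next to the pluripotent epiblast of the early embryo. Each of 3 fractions gave 2 libraries: PDGFRa-only (PECAM1-negative, PDGFRa-positive), PECAM1-only (PECAM1-positive, PDGFRa-negative) and double-positive. All fractions shared the strain 129X1/SvJ x 129S1/Sv, passages 13 to 17, growth without feeder cells on gelatin with leukemia inhibitory factor and serum replacement, and no genetic change or drug treatment named in the labels. Each library came from 100000 sorted events and amplified RNA, and the labels give neither the number of ESC lines or clones nor whether replicates 1 and 2 came from separate cultures, so each p measures only the spread between these libraries.

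p53 is a transcription factor that the ubiquitin ligase Mdm2 keeps at a low level, and Mdm2 is itself a p53 target, so the pair forms a feedback loop. When DNA damage or other stress frees p53, it binds a DNA element made of a pair of decamers and raises genes that slow the cell cycle, repair DNA, restrain growth signalling or kill the cell. Mouse ESCs are known for abundant Trp53 RNA, and p53 can lower Nanog in damaged ESCs. RNA levels show neither the amount nor the activity of the p53 protein, which was not measured here.

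Total counts ran from 4809661 to 7273669 per library, and 12.8% to 17.9% of them came from 1 mitochondrial ribosomal RNA gene, mt-Rnr2. Levels are given as CPM, edgeR's read counts relative to the TMM-scaled library size, as mean ± SD of 2 libraries. The sort was visible in the RNA: Pecam1 stood at 1.54 ± 0.0430 CPM in the PDGFRa-only, 49.4 ± 6.30 in the double-positive and 154 ± 16.3 in the PECAM1-only fraction, and Pdgfra at 557 ± 68.2, 535 ± 24.1 and 1.96 ± 0.111 CPM in the same order. The summed level of 8 pluripotency markers ran from 109 to 154 CPM in the PDGFRa-only, 443 to 514 in the double-positive and 1498 to 1583 in the PECAM1-only libraries. That of 8 primitive endoderm markers ran from 9375 to 10383, 6836 to 7444 and 19.8 to 21.5 CPM. Of 5 endothelial and blood markers, Ptprc, Emcn and Erg had 0 counts in every library, while the sum ran from 71.5 to 126, 54.3 to 74.4 and 12.5 to 13.8 CPM. Cdh5 carried most of this sum in both PDGFRa-positive fractions. In PECAM1-only replicates 1 and 2 Cdh5 stood at 0 and 0.157 CPM, and nearly all of the sum was Tek, at 13.8 and 12.4 CPM. Tek stood at 9.43 and 10.4 CPM in PDGFRa-only replicates 1 and 2. The sum of 5 fibroblast markers stayed between 1.72 and 5.95 CPM in all libraries. In sorted bulk RNA a lower level may mean fewer cells of a type or less RNA per cell, and the data cannot tell these apart.

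The upstream DNA of the loop genes and of 2 targets is shown because each carries the p53 decamer within 250 bases of its start. The sequences are from RefSeq on build GRCm38.p6, read 5′ to 3′ on the strand of the gene, and capitals mark the decamer. They lie at chr11:69580109-69580358 (plus strand) for Trp53, chr10:117710759-117711008 (minus strand) for Mdm2, chr11:40755287-40755536 (minus strand) for Ccng1 and chr10:41887189-41887438 (plus strand) for the second of 2 entries of Sesn1.
Trp53: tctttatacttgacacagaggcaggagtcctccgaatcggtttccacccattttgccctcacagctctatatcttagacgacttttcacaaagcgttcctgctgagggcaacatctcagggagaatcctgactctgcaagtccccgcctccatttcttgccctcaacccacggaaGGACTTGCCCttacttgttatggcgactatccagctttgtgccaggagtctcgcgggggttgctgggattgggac
Mdm2: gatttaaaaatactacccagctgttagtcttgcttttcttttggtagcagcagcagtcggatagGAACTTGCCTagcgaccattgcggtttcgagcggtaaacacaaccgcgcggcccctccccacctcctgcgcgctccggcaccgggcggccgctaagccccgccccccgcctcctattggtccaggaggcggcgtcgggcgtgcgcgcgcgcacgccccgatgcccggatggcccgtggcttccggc
Ccng1: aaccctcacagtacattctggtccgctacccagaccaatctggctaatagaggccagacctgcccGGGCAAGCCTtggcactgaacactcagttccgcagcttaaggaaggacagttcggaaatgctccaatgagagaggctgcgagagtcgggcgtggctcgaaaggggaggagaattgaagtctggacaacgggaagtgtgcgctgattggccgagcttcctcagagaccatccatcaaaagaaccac
Sesn1: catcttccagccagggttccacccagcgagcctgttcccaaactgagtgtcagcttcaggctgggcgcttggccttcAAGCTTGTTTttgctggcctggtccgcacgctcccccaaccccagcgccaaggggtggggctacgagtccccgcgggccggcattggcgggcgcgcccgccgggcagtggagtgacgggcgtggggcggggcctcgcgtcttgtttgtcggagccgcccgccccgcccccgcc
The decamer consensus of p53 has degenerate letters and reads as its own reverse complement, so 1 strand was searched. A match to it began 75 bases before the start in Trp53, 186 in Mdm2, 185 in Ccng1 and 173 in Sesn1. RefSeq entries were available for 6 of the 9 genes, and those of Phlda3, Sesn2 and the other Sesn1 entry held no match. Across all genes 2341 of 32851 entries, 7.13%, held the decamer, so a single match also occurs before many other genes. Among the 7 entries of these genes 4 held it, and this difference was not tested. The bound element is a pair of decamers at most 13 bases apart. Only these 250 bases were searched, not introns or other DNA, and none of the 7 entries held an exact pair, against 0.0639% of all entries. With at most 1 mismatch over both decamers together, 0.898% of all entries held a pair, among them Ccng1, whose run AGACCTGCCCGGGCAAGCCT began 195 bases before the start with no spacer. These are matches of letters, and binding was not measured.

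PDGFRa-only and PECAM1-only cells differed in all 9 genes. Trp53, Perp and Trp53inp1 were lower in PDGFRa-only cells by over 2-fold, Zmat3, Sesn1, Mdm2 and Sesn2 were lower by smaller amounts, and Ccng1 and Phlda3 were higher. The 9 calls compare with 59% of the 13909 genes tested (edgeR quasi-likelihood test, adjusted p below 0.05). Lower calls took 7 of the 9 genes against 28.8% of genes tested, lower calls of at least 2-fold 3 of 9 against 20%, and higher calls 2 of 9 against 30.1%. The median log2 fold change was -0.86 over the 9 genes and 0.01 over all genes tested. The background split, 4193 higher and 4012 lower, became 3227 and 5318 under library-size scaling, which moved the median of all genes to -0.28 (upper-quartile scaling, -0.20).

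**Figure D1:**
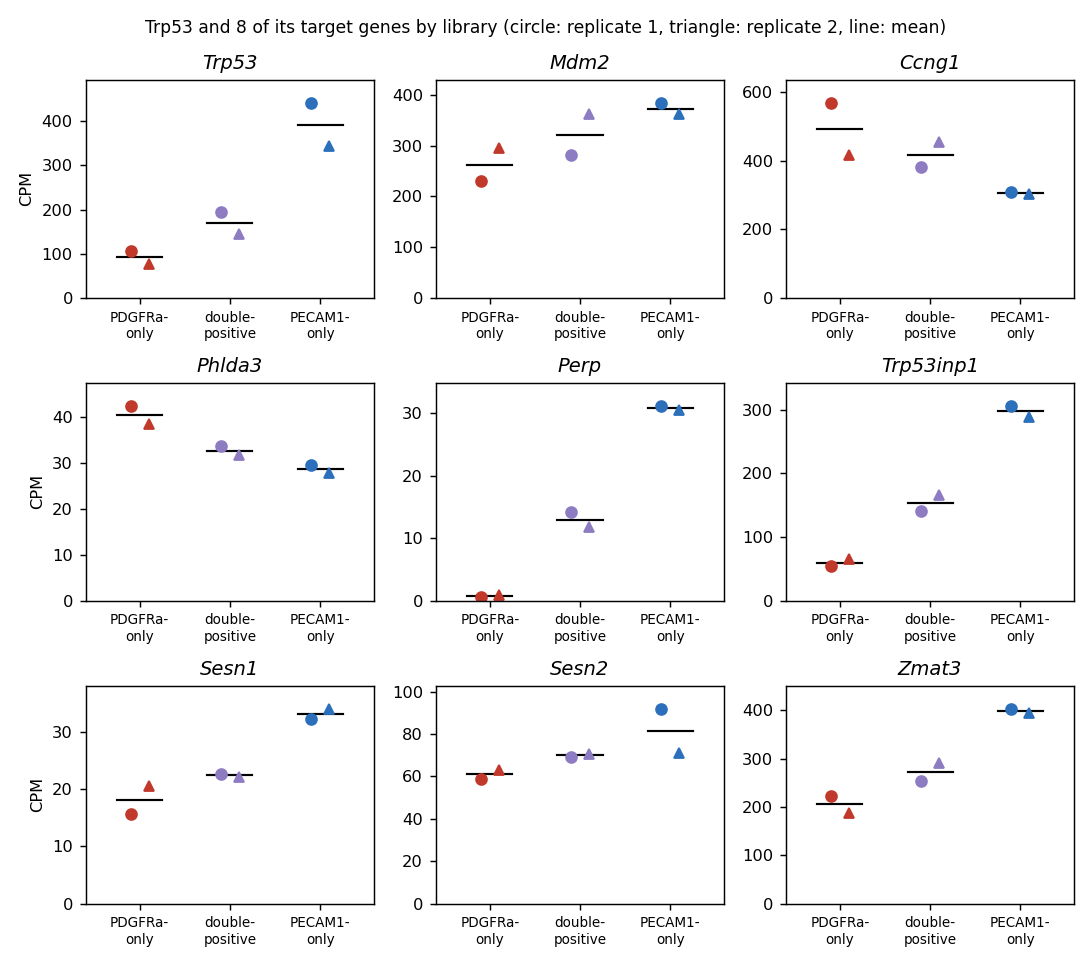
Level of Trp53 and its 8 targets in each library (CPM, TMM-scaled; circles are replicate 1, triangles replicate 2 and lines the mean of 2, 1 panel per gene with its own linear axis from 0). Trp53, Mdm2, Perp, Trp53inp1, Sesn1, Sesn2 and Zmat3 run from PECAM1-only down through double-positive to PDGFRa-only by their means, with overlapping libraries for Mdm2. Phlda3 and Ccng1 run the other way by their means, with overlapping PDGFRa-only and double-positive libraries for Ccng1. For Phlda3 the double-positive against PECAM1-only step turned to -0.03 on the log2 scale under library-size scaling.

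Trp53 (ENSMUSG00000059552, chr11:69580359-69591873, plus strand, GRCm38) stood at 107 and 77.0 CPM in PDGFRa-only replicates 1 and 2, 194 and 145 in double-positive and 441 and 344 in PECAM1-only. The 3 fractions did not overlap, and replicate 1 was the higher library in each. Between PDGFRa-only and PECAM1-only cells the log2 fold change was -2.10 (SE 0.20, adjusted p = 1.03e-08), a level 4.28-fold lower. The processed pseudogene Trp53-ps, whose sequence resembles the Trp53 transcript, held counts equal to 1.30% to 2.11% of those of Trp53 in each library. How reads that match both genes were counted is not given in the sources used here, and an exchange of reads between them was not tested.

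Mdm2 (ENSMUSG00000020184, chr10:117688875-117710758, minus strand), the ligase that marks p53 for degradation, moved far less than Trp53. Its levels were 231 and 295 CPM in PDGFRa-only, 281 and 363 in double-positive and 384 and 362 in PECAM1-only libraries. Double-positive replicate 2 lay at the PECAM1-only level, so only PDGFRa-only and PECAM1-only libraries were separate, with a log2 fold change of -0.50 (SE 0.17, adjusted p = 0.0148). The ratio of Mdm2 to Trp53 counts within a library was 2.15 and 3.83 in PDGFRa-only, 1.45 and 2.51 in double-positive and 0.870 and 1.05 in PECAM1-only libraries. The PECAM1-only fraction had the lowest ratio in both replicates, and the other 2 fractions overlapped.

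Ccng1 (ENSMUSG00000020326, chr11:40748552-40755311, minus strand) encodes cyclin G1, which recruits the phosphatase PP2A to Mdm2. Its level was 567 and 417 CPM in PDGFRa-only, 382 and 453 in double-positive and 309 and 304 in PECAM1-only libraries. Both PDGFRa-positive fractions lay above the PECAM1-only libraries and overlapped each other. In PDGFRa-only cells it was 1.60-fold higher than in PECAM1-only cells (log2 0.68, SE 0.17, adjusted p = 0.00165).

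Phlda3 (ENSMUSG00000041801, chr1:135766119-135769136, plus strand) encodes a pleckstrin homology protein that competes with the kinase Akt for membrane lipids. It stood at 42.4 and 38.5 CPM in PDGFRa-only, 33.7 and 31.8 in double-positive and 29.6 and 27.9 in PECAM1-only libraries. The fractions did not overlap and the order was the reverse of that of Trp53, but the steps were small. The log2 fold change between the outer fractions was 0.49 (SE 0.19, adjusted p = 0.0300), and this direction was absent from the RPKM table, where the value was -0.01.

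Perp (ENSMUSG00000019851, chr10:18845020-18857073, plus strand), a membrane protein of apoptosis and of desmosomes, had the widest range of the 9 genes. It had 3 and 6 counts in the PDGFRa-only libraries, 90 and 75 in the double-positive and 214 and 195 in the PECAM1-only libraries. In CPM these are 0.673 and 0.906, 14.2 and 11.7, and 31.2 and 30.6, with no overlap between fractions. The PECAM1-only level was 38.0 times the PDGFRa-only level, with a 95% counting interval of 19.8 to 83.7 (edgeR log2 fold change -5.22, SE 0.35, adjusted p = 5.19e-11). Such intervals cover counting error only, since the RNA was amplified and reads carried no molecular identifiers.

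Trp53inp1 (ENSMUSG00000028211, chr4:11156431-11174379, plus strand) encodes a stress protein that takes part in p53 phosphorylation and in autophagy. Its level was 53.9 and 65.0 CPM in PDGFRa-only, 141 and 165 in double-positive and 306 and 289 in PECAM1-only libraries. The fractions were well apart relative to the spread within each. PDGFRa-only cells had a 4.98-fold lower level than PECAM1-only cells (log2 -2.32, SE 0.17, adjusted p = 2.27e-10).

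The sestrins Sesn1 (ENSMUSG00000038332, chr10:41809935-41908424, plus strand) and Sesn2 (ENSMUSG00000028893, chr4:132492032-132510501, minus strand) bind the GATOR2 complex and thereby restrain the growth kinase complex mTORC1. Sesn1 stood at 15.7 and 20.5 CPM in PDGFRa-only, 22.7 and 22.2 in double-positive and 32.3 and 34.0 in PECAM1-only libraries. Sesn2 stood at 59.0 and 62.8, 69.4 and 70.4, and 91.9 and 71.2 CPM in the same order. Both genes had the order of Trp53, with steps that for Sesn2 were close to the spread of the PECAM1-only libraries. The log2 fold change between the outer fractions was -0.86 (SE 0.21, adjusted p = 0.00149) for Sesn1. It was -0.42 (SE 0.17, adjusted p = 0.0453) for Sesn2.

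Zmat3 (ENSMUSG00000027663, chr3:32334792-32366014, minus strand) encodes a zinc finger protein that binds RNA and affects splicing. Its level was 222 and 189 CPM in PDGFRa-only, 253 and 292 in double-positive and 403 and 395 in PECAM1-only libraries. The PECAM1-only libraries lay well above the other 4. PDGFRa-only cells differed from them by a log2 fold change of -0.96 (SE 0.16, adjusted p = 2.43e-05).

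In this comparison the calls of Trp53, Perp, Trp53inp1, Zmat3, Sesn1 and Ccng1 held in every alternative run. Leaving out a library ended the call of Mdm2 (without PDGFRa-only replicate 1, adjusted p = 0.0960, or PECAM1-only replicate 1, 0.0890), of Phlda3 (PDGFRa-only replicate 1, 0.0753, PECAM1-only replicate 1, 0.0825, or replicate 2, 0.138) and of Sesn2 (PDGFRa-only replicate 1, 0.109, PECAM1-only replicate 1, 0.464, double-positive replicate 1, 0.0777, or replicate 2, 0.0713). Other settings ended the call of Phlda3 (upper-quartile, 0.199, and library-size scaling, 0.363, the stricter count filter, 0.0508, DESeq2, 0.0855, the fit of the 2 fractions alone, 0.0641, and both RPKM fits), of Sesn2 (no count filter, 0.0807, and the fit of the 2 fractions alone, 0.0543) and of Mdm2 (RPKM with a pseudocount of 0.1, 0.0604). The pluripotency markers moved with Trp53 and with the 6 targets that fell: 8 of 8 were lower in PDGFRa-only than in PECAM1-only cells, and their part in these differences was not tested.

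**Figure D2:**
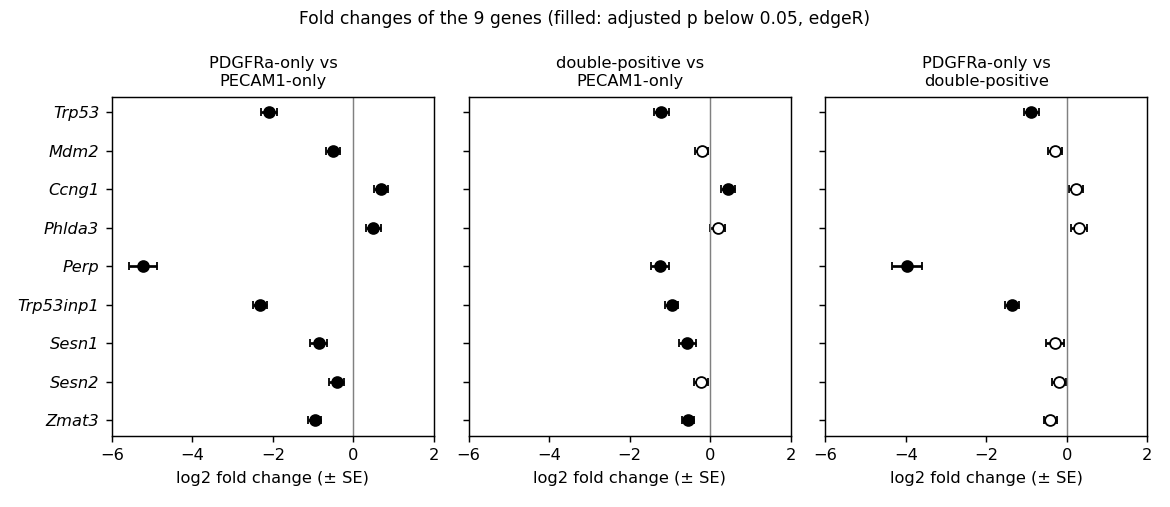
Log2 fold change of the 9 genes in the 3 comparisons (points are edgeR estimates, bars their SE, filled where the adjusted p is below 0.05). Perp, Trp53inp1 and Trp53 lie below 0 in every comparison, while Ccng1 and Phlda3 lie above 0 with TMM scaling (Phlda3 stood at -0.03 between double-positive and PECAM1-only cells under library-size scaling).

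Double-positive cells, which carry both sort markers, had less Trp53, Perp, Trp53inp1, Zmat3 and Sesn1 RNA than PECAM1-only cells and more Ccng1. These are 6 calls of 9, against 38.2% of all genes tested, with 5 lower against 16.4% and 1 higher against 21.8%. The log2 fold change was -1.21 for Trp53 (SE 0.19, adjusted p = 2.74e-05), -1.25 for Perp (SE 0.22, adjusted p = 0.000139) and -0.96 for Trp53inp1 (SE 0.16, adjusted p = 6.26e-05). It was -0.55 for Zmat3 (adjusted p = 0.00803), -0.56 for Sesn1 (adjusted p = 0.0346) and 0.45 for Ccng1 (adjusted p = 0.0427). Mdm2 (-0.21, adjusted p = 0.348), Sesn2 (-0.22, adjusted p = 0.334) and Phlda3 (0.19, adjusted p = 0.467) did not pass the test. The median was -0.55 over the 9 genes and -0.01 over all genes tested, whose split of 3031 higher and 2288 lower became 2528 and 3306 under upper-quartile and 2421 and 3658 under library-size scaling. Of the markers, 7 of 8 pluripotency genes were lower and 8 of 8 primitive endoderm genes higher in the double-positive fraction, and their part in these differences was not tested.

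Trp53, Perp and Trp53inp1 kept their calls in this comparison in every alternative run. The call of Sesn1 was lost without any 1 of the 4 libraries compared (PECAM1-only replicate 1, adjusted p = 0.126, replicate 2, 0.168, double-positive replicate 1, 0.160, replicate 2, 0.174), that of Zmat3 without PECAM1-only replicate 1 (0.0640) or double-positive replicate 1 (0.161), and that of Ccng1 without PECAM1-only replicate 1 (0.122), replicate 2 (0.143) or double-positive replicate 2 (0.330). Ccng1 also missed the threshold under RLE (0.0874), upper-quartile (0.193) and library-size scaling (0.274), with DESeq2 (0.111), the stricter count filter (0.0665) and both RPKM fits (0.0664 and 0.109), as did Sesn1 with no count filter (0.0695) and Zmat3 from RPKM with a pseudocount of 0.1 (0.0643). Library-size scaling added calls for Mdm2 (-0.43, adjusted p = 0.0412) and Sesn2 (-0.44, adjusted p = 0.0447) and turned Phlda3 to -0.03.

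Between the 2 PDGFRa-positive fractions, those without PECAM1 had less Perp, Trp53inp1 and Trp53 RNA. These were 3 lower calls of 9 and no higher one, against 17.6% of genes tested in either direction, 11.7% lower and 5.94% higher. Perp was 15.9 times as high in double-positive as in PDGFRa-only cells (counting interval 8.19 to 35.5, edgeR log2 fold change -3.96, adjusted p = 1.67e-07). Trp53inp1 differed by -1.36 (SE 0.17, adjusted p = 6.09e-06) and Trp53 by -0.88 (SE 0.19, adjusted p = 0.00299). The other 6 genes ran from -0.41 for Zmat3 (adjusted p = 0.0778) to 0.30 for Phlda3 (adjusted p = 0.283), and the libraries of Mdm2 and of Ccng1 overlapped. The median was -0.29 over the 9 genes and -0.00 over all genes tested, whose split of 826 higher and 1624 lower became 528 and 1878 under library-size scaling.

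Without double-positive replicate 1 Trp53 missed the threshold in this comparison (-0.66, adjusted p = 0.0657), and so it did in both RPKM fits (-0.93, adjusted p = 0.0561, and -0.96, adjusted p = 0.0875). Without PDGFRa-only replicate 2 Mdm2 (-0.48, adjusted p = 0.0365) and Ccng1 (0.44, adjusted p = 0.0392) passed, and Zmat3 passed without PDGFRa-only replicate 1 (-0.53, adjusted p = 0.0210) and under library-size scaling (-0.48, adjusted p = 0.0369). Perp and Trp53inp1 kept their calls in every alternative run. Pluripotency markers were again lower, 7 of 8, in the PDGFRa-only fraction, and 5 of 8 primitive endoderm markers were higher; their part was not tested.

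Trp53, Perp and Trp53inp1 were thus called lower in all 3 comparisons, as were 1243 genes or 8.94% of those tested; the comparisons share libraries and are not independent. Within each replicate number the order PECAM1-only, double-positive, PDGFRa-only held in both numbers for Trp53, Perp, Trp53inp1, Sesn1, Sesn2 and Zmat3. Phlda3 had the opposite order in both with TMM scaling. In replicate 2 the double-positive library was the highest of the 3 for Mdm2 and for Ccng1. The share of all genes tested with each order was not computed, and the labels do not say whether same-numbered libraries belong together.

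The position of the double-positive level between the outer fractions, on the linear CPM scale with the PDGFRa-only mean at 0% and the PECAM1-only mean at 100%, was 25.7% for Trp53 and 66.1% for Phlda3, the lowest and highest of the 9 genes. Sesn1 lay at 28.6%, Zmat3 at 34.6%, Trp53inp1 at 39.3%, Ccng1 at 40.3%, Perp at 40.4%, Sesn2 at 43.5% and Mdm2 at 53.8%. On this linear scale all but Mdm2 and Phlda3 were therefore nearer to the PDGFRa-only level. The log2 scale placed Perp and Trp53inp1 nearer to the PECAM1-only level instead. For Perp the log2 fold change was -3.96 between PDGFRa-only and double-positive and -1.25 between double-positive and PECAM1-only cells. The same position ran from 19.2% to 40.0% over the 8 pluripotency markers and from 17.2% to 52.6% over the 8 primitive endoderm markers. The values of Mdm2, Phlda3, Ccng1 and Sesn2 rest on small differences between fractions and are the least precise.

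**Figure D3:**
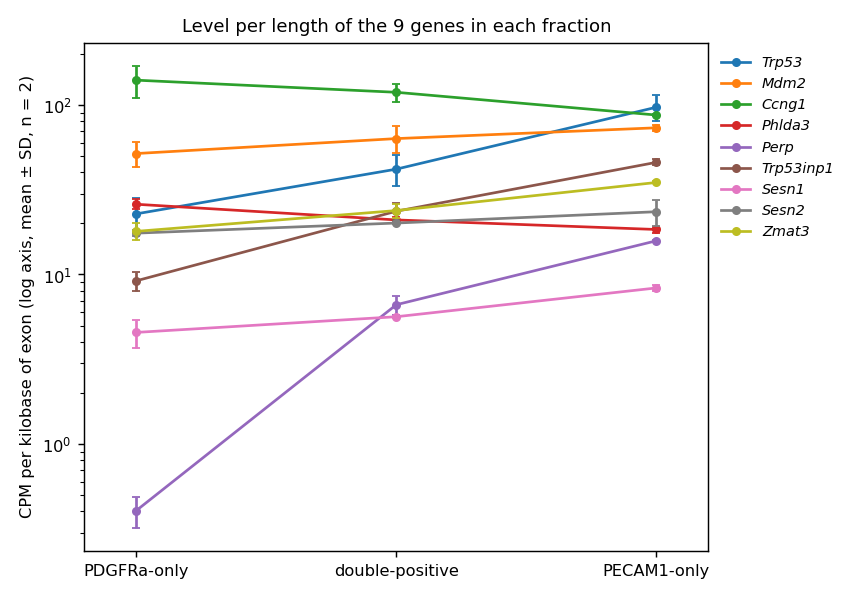
Level of the 9 genes per kilobase of exon in the 3 fractions (CPM per kilobase of the union of GENCODE M21 exons, log axis; points are means and bars SD of 2 libraries). Ccng1 leads in both PDGFRa-positive fractions and Trp53 in the PECAM1-only fraction.

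Per kilobase of exon, Trp53 went from the 4th rank in PDGFRa-only cells (22.8 ± 5.29 CPM per kb) to the 3rd in double-positive (41.8 ± 8.56) and the 1st in PECAM1-only cells (97.0 ± 17.0). Ccng1 led in the PDGFRa-only (140 ± 30.2) and double-positive fractions (119 ± 14.2) and lay at 87.2 ± 1.07 CPM per kb in PECAM1-only cells, below Trp53 by less than the SD of Trp53. Mdm2 followed Ccng1 in every fraction, at 51.7 ± 8.92, 63.4 ± 11.3 and 73.4 ± 3.10 CPM per kb in PDGFRa-only, double-positive and PECAM1-only cells. Phlda3 was above Trp53inp1 in PDGFRa-only cells (26.0 ± 1.77 against 9.18 ± 1.21) and below it in PECAM1-only cells (18.4 ± 0.744 against 45.9 ± 1.88). Neighbours that differed by less than their SD were Phlda3 and Trp53, Trp53 and Zmat3, and Zmat3 and Sesn2 in PDGFRa-only cells, and Zmat3 and Trp53inp1, and Trp53inp1 and Phlda3, in double-positive cells, taking the larger SD of the pair. Sesn2 exceeded Sesn1 per kilobase in every library, by 2.40 to 4.31 times.

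Other genes of the pathway were read from lists by role. Of the p53 relatives, Trp63 had no count and Trp73, which encodes p73, had 0 and 0 counts in PDGFRa-only, 15 and 16 in double-positive and 59 and 55 in PECAM1-only libraries. Against a floor of 3 counts over the fraction, its PDGFRa-only level was at least 31.8-fold lower than the PECAM1-only level and at least 8.98-fold lower than the double-positive level. Between double-positive and PECAM1-only cells its log2 fold change was -1.81 (adjusted p = 0.000711).

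Of 22 genes that regulate p53, 21 were tested between PDGFRa-only and PECAM1-only cells, and 12 were lower, 2 higher and 7 did not pass, with a median of -0.61. Over all genes tested 28.8% were lower and 30.1% higher, and these shares are the background for each list below in this comparison. The damage kinases Atm (-1.49, adjusted p = 8.75e-07) and Atr (-1.20, adjusted p = 4.91e-06), which phosphorylate p53, and the deubiquitinase Usp7 (-1.10, adjusted p = 8.61e-06), which acts on p53 and Mdm2, had the smallest p values. The higher genes were the phosphatase Ppm1d (0.61, adjusted p = 0.00621), which switches the p53 response off, and the p53 kinase Hipk2 (0.70, adjusted p = 0.00224). Mdm4, the partner of Mdm2 in holding p53 down, was named after its values were seen. It stood at 87.3 and 128 CPM in PDGFRa-only, 141 and 159 in double-positive and 191 and 200 in PECAM1-only libraries (-0.85 between the outer fractions, adjusted p = 0.000294).

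A further 45 p53 targets in 3 lists had 42 tested members, of which 24 (57.1%) were lower in PDGFRa-only than in PECAM1-only cells, 10 (23.8%) were higher and 8 did not pass, with a median of -0.63, against 28.8% lower and 30.1% higher over all genes tested. Of 10 cell cycle targets 7 were lower, 1 higher and 2 did not pass, with a median of -0.93. Ckap2, a spindle protein, was lower by -2.93 (adjusted p = 2.99e-11) and the kinase Plk3 by -2.04 (adjusted p = 3.57e-07). Ptprv had 3 counts in the PDGFRa-only libraries, and its PECAM1-only level was 34.6 times as high (counting interval 11.6 to 170). The antiproliferative gene Btg2 was the higher one (1.58, adjusted p = 6.22e-06). Cdkn1a, which encodes the cell cycle inhibitor p21 and is a classical p53 target, did not pass, with 68.0 and 126 CPM in PDGFRa-only, 88.6 and 122 in double-positive and 65.8 and 97.7 in PECAM1-only libraries. Its log2 fold change was 0.26 (adjusted p = 0.405), but 0.65 (adjusted p = 0.0117) without PDGFRa-only replicate 1 and -0.26 (adjusted p = 0.354) without PDGFRa-only replicate 2. Sfn, a 14-3-3 protein, did not pass either (-0.06, adjusted p = 0.934).

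Of 13 apoptosis targets 9 were lower, 4 higher and none failed to pass, with a median of -0.70. Trp53i11 (-4.77, adjusted p = 6.47e-08) and Pmaip1, which encodes the BH3-only protein Noxa (-2.05, adjusted p = 8.29e-06), were among the lower ones. Leaving out 1 library gave -5.82 to -4.28 for Trp53i11 and -2.72 to -1.66 for Pmaip1, with the larger changes without PDGFRa-only replicate 2. Dram1, a lysosomal protein of autophagy, was a large exception, with 1559 counts over the PDGFRa-only, 1036 over the double-positive and 1 over the PECAM1-only libraries. Its PDGFRa-only level was 1865 times the PECAM1-only level (counting interval 334 to 73705). The other higher genes were the death receptor Tnfrsf10b (0.59, adjusted p = 0.00738), the apoptosome scaffold Apaf1 (0.62, adjusted p = 0.00454) and Triap1 (0.84, adjusted p = 0.00238).

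Of 19 targets of DNA repair and metabolism 8 were lower, 5 higher and 6 did not pass, with a median of -0.14; the share of higher calls was near the 30.1% of all genes tested. The adenylate kinase Ak1 (-4.76, adjusted p = 5.94e-08), with 4 counts in the PDGFRa-only libraries, the lipid transfer protein Pltp (-2.13, adjusted p = 1.35e-06) and the epoxide hydrolase Ephx1 (-3.69, adjusted p = 1.92e-06) had the smallest p values. The higher genes were the polymerase Polk (0.62, adjusted p = 0.00429), the glycolysis regulator Tigar (0.55, adjusted p = 0.0231), the glutaminase Gls2 (0.62, adjusted p = 0.0427), the ribosomal protein gene Rps27l (0.75, adjusted p = 0.00159) and Trp53inp2 (1.47, adjusted p = 2.51e-06). Trp53inp2, the relative of Trp53inp1 that acts in autophagy, thus had the opposite direction to Trp53inp1. The calls of this list numbered 8 in place of 13 without PECAM1-only replicate 1.

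In the regulator and target lists the lower genes named above kept their calls in every alternative that tested them. So did the higher genes Btg2, Dram1, Triap1 and Trp53inp2, while the other higher ones lost theirs in some. The lower genes, Mdm4 aside, were named for the smallest p of their list, and most higher ones because they were few. The firmness of lower and higher calls therefore cannot be compared from these genes. Ppm1d (adjusted p = 0.117) and Tnfrsf10b (0.0738) missed the threshold without PECAM1-only replicate 2, Tigar (0.161) and Gls2 (0.361) without PECAM1-only replicate 1, and Gls2 also without PDGFRa-only replicate 1 (0.112). Library-size scaling ended the calls of Ppm1d (0.122), Hipk2 (0.0520), Tnfrsf10b (0.146), Apaf1 (0.0984), Polk (0.0979), Tigar (0.272) and Gls2 (0.272). Upper-quartile scaling ended those of Ppm1d (0.0565), Tnfrsf10b (0.0692), Tigar (0.146) and Gls2 (0.171), and DESeq2 those of Tigar (0.0669) and Gls2 (0.127). Gls2 also missed the threshold under RLE scaling (0.0542), the stricter count filter (0.0708) and the fit of the 2 fractions alone (0.0681). From RPKM with either pseudocount the calls of Ppm1d, Hipk2, Tnfrsf10b, Tigar, Gls2 and Rps27l (0.0599 and 0.0909) were lost, and with a pseudocount of 0.1 also that of Apaf1 (0.0650).

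In the other comparisons 20 and 12 of the 42 targets passed. Between double-positive and PECAM1-only cells 14 (33.3%) were lower and 6 (14.3%) higher, with a median of -0.33, against 16.4% and 21.8% of all genes tested. The lower count was 10 without PECAM1-only replicate 1, 6 without PECAM1-only replicate 2, 5 without double-positive replicate 1 and 8 without double-positive replicate 2, and the higher count was 3 in each of these but double-positive replicate 1, where it was 6. Between PDGFRa-only and double-positive cells 10 (23.8%) were lower and 2 (4.76%) higher, Dram1 and Rps27l, with a median of -0.25, against 11.7% and 5.94% of all genes tested. Leaving out 1 library gave 8 to 13 lower genes there, and 4 higher genes without PDGFRa-only replicate 2, 1 without PDGFRa-only replicate 1 or double-positive replicate 2, and 0 without double-positive replicate 1.

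**Figure D4:**
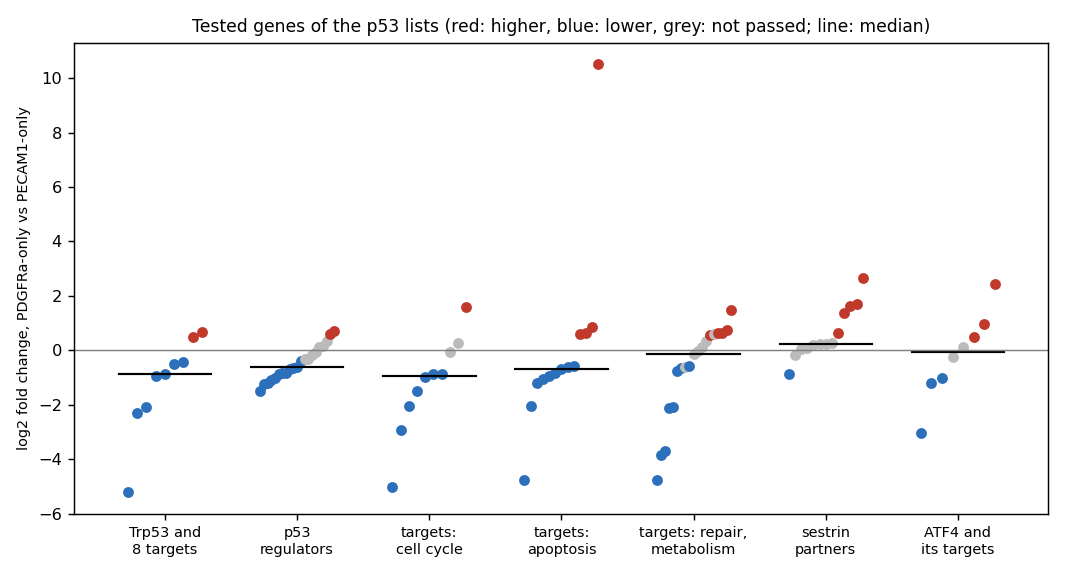
Log2 fold change between PDGFRa-only and PECAM1-only cells for each tested gene among Trp53 and its 8 targets and in the regulator, target, sestrin and ATF4 lists (points are genes, lines list medians, red higher, blue lower, grey not passed). The 3 lists of other p53 targets have medians of -0.93, -0.70 and -0.14, and the point far above the rest is Dram1, whose fitted value rests on 1 count in the PECAM1-only libraries.

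The proteins that sestrins act with were read from a list of 13, all tested. Of these 5 were higher in PDGFRa-only than in PECAM1-only cells, 1 was lower and 7 did not pass, with a median of 0.24 against 0.01 over all genes tested. Higher calls took 30.1% and calls in either direction 59% of all genes tested, so the share of higher calls in this list was near the background. Sesn3, the other sestrin, stood at 27.0 ± 0.710 CPM in PDGFRa-only, 21.7 ± 2.69 in double-positive and 10.4 ± 0.548 in PECAM1-only cells (1.37 between the outer fractions, adjusted p = 2.43e-05), so its order was the reverse of that of Sesn1 and Sesn2. The GATOR2 subunit gene Sec13 (1.70, adjusted p = 1.31e-07), Castor2 (2.66, adjusted p = 1.25e-08), the autophagy receptor Sqstm1 (0.62, adjusted p = 0.00265) and the oxidative stress sensor Keap1 (1.63, adjusted p = 2.58e-05) were higher. Castor1 was lower (-0.88, adjusted p = 0.00345), a call that was lost without PECAM1-only replicate 1 (0.0818), and that of Sqstm1 was lost under library-size scaling (0.0809) and in both RPKM fits (0.137 and 0.219).

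Sesn2 is also a target of Atf4, the transcription factor of the integrated stress response, so Atf4 and its targets were read beside it. Of 8 tested 3 were higher, 3 lower and 2 did not pass, with a median of -0.06, shares near the 30.1% and 28.8% over all genes tested. Atf4 stood at 254 ± 23.3 CPM in PDGFRa-only, 178 ± 6.92 in double-positive and 130 ± 8.56 in PECAM1-only cells (0.96 between the outer fractions, adjusted p = 2.02e-05), an order opposite to that of Sesn2. The asparagine synthetase Asns (0.49, adjusted p = 0.0116) and the lipoprotein receptor Vldlr (2.45, adjusted p = 0.000194) were higher, and Nupr1 (-3.05, adjusted p = 1.13e-05), the glutathione-degrading enzyme Chac1 (-1.20, adjusted p = 0.000867) and the pseudokinase Trib3 (-1.01, adjusted p = 0.00466) were lower. Ddit3, which encodes CHOP (0.11, adjusted p = 0.701) and Atf5 (-0.23, adjusted p = 0.490) did not pass. Asns lost its call without PECAM1-only replicate 1 (0.142), under upper-quartile (0.119) and library-size scaling (0.268) and in both RPKM fits (0.371 and 0.460), Trib3 lost its call without PECAM1-only replicate 2 (0.0552), and Vldlr stood at 1.59 without PDGFRa-only replicate 2. From RPKM with a pseudocount of 0.1 Atf4 itself missed the threshold (0.46, adjusted p = 0.0519), and Atf5 passed in both RPKM fits (-0.55, adjusted p = 0.0210, and -0.59, adjusted p = 0.0413).

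Likeness of pattern was measured over the 6 libraries among 13908 other tested genes. It was the root mean square distance between log2 CPM values, each gene centred on its own mean. A prior count was added before taking logs, which lessens differences at low counts such as those of Perp in PDGFRa-only cells. Nearest to Trp53 were Kat6b, a histone acetyltransferase gene (distance 0.0672), Psma8 (0.0932) and Glt1d1 (0.0997). Psma8, a proteasome subunit gene, stood at 5.93 ± 1.77 CPM in PDGFRa-only, 11.3 ± 0.711 in double-positive and 26.2 ± 4.18 in PECAM1-only cells. Nearest to Mdm2 were Camk2g (0.0209), Wdr37 (0.0479) and BC005537 (0.0553), and nearest to Perp were Crmp1 (0.100), Btnl7 (0.115) and Zcchc24 (0.127).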

How the data were processed

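Total RNA of sorted ESC fractions was amplified and sequenced as 2 libraries for each of 3 fractions. The deposited counts are whole numbers of reads for each Ensembl gene, not normalized by the authors. HTSeq 0.5.4p3, TopHat2 2.0.8b, Bowtie2 2.1.0, cutadapt 1.2.1 and the build GRCm38 are named in the submitters' processing notes, without role or order. Whether the counting used strand is not given in the sources used here. A deposited table of RPKM values for 16105 genes, preprocessed by the authors in a way not given in the sources used here, served only as an alternative.

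The genes were grouped by the library titles. Genes were kept by filterByExpr (minimum count 10), scaled by TMM and tested with edgeR 4.0.16 in R 4.3.3: a robust quasi-likelihood fit with 1 mean per fraction over all 6 libraries, 3 residual degrees of freedom, two-sided tests and Benjamini-Hochberg adjustment over all 13909 tested genes at 0.05. All 9 genes passed the filter. A log2 fold change is positive where the fraction named first is higher. The biological coefficient of variation was 13.5%. Both libraries of a fraction differed by more than sampling noise, and most so in the PDGFRa-only fraction. The chi-square over its degrees of freedom was 28.4 there, 6.08 in the PECAM1-only and 5.81 in the double-positive fraction. The fit shares its estimate of the spread over the fractions. The fit was also run on simulated data, which had far fewer changed genes than were called here and the same spread in every fraction. That run therefore does not show how accurate the fit is on these data. The alternatives were RLE, upper-quartile and library-size scaling, no count filter, a minimum of 50, DESeq2 1.42.0, a replicate block, a fit of the compared fractions alone, limma 3.58.1 on log2(RPKM + 1) and log2(RPKM + 0.1), and leaving out each library; applying them to genes of the lists was decided after seeing the data.

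Exon lengths and positions came from GENCODE M21, to which 36639 identifiers matched. No exon of the 9 genes overlapped an exon of another gene, although 9930024M15Rik overlaps the span of Sesn1 and Gm12981 that of Sesn2, each on the same strand. Upstream sequences came from RefSeq (GRCm38.p6). Counting intervals are exact at 95%. The genes, their lists and roles were chosen with earlier results of these data known. Named from each list were the 3 genes with the smallest p between PDGFRa-only and PECAM1-only cells and those in a count of 5 or fewer. Python 3.11.15, scipy 1.17.1 and matplotlib 3.10.9 were used.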

Additional observations from a re-analysis of the deposited data

How the results depend on the processing

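Of the fold changes of the 9 genes under 16 alternatives, Phlda3 alone changed sign. From RPKM its log2 fold change was -0.013 (pseudocount 1) and -0.013 (0.1) between PDGFRa-only and PECAM1-only, -0.00015 and -4.0e-05 between double-positive and PECAM1-only, and -0.013 and -0.013 between PDGFRa-only and double-positive cells. Library-size scaling gave -0.027 for double-positive against PECAM1-only. Among list genes that did not pass, Cdkn1a changed sign under library-size scaling (-0.030), with RPKM (-0.24 and -0.24) and without PDGFRa-only replicate 2 (-0.26; 0.65 without replicate 1). Ddit3 did so under library-size (-0.17) and upper-quartile scaling (-0.091) and from RPKM (-0.14 and -0.15). Sfn did so with RPKM (0.071 and 0.077) and without PDGFRa-only replicate 1 (0.17) or PECAM1-only replicate 2 (0.17), with -0.37 at the other end when 1 library was left out, and Atf5 without PECAM1-only replicate 2 (0.0029, other end -0.41). The causes were not tested.

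Without 1 library, 6 to 9 of the 9 genes were called between PDGFRa-only and PECAM1-only, 3 to 6 between double-positive and PECAM1-only (3 without PECAM1-only replicate 1) and 2 to 5 between PDGFRa-only and double-positive cells (5 without PDGFRa-only replicate 2). Calls over all genes ran from 6827 to 8156, 3648 to 6253 and 1326 to 2945, the last against 2450 with all libraries, 1326 without double-positive replicate 1 and 1444 without replicate 2. With RPKM the last comparison gave 788 (pseudocount 1) and 797 (0.1) calls. The split of calls between double-positive and PECAM1-only cells was 2363 higher and 2778 lower from RPKM with a pseudocount of 1.

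The replicate numbers were tried as a replicate block although only 2 exist: the correlations of same-numbered deviations were -0.0289, 0.132 and 0.183, and the block gave 9, 6 and 3 calls of the 9 genes, as without it, and 8397, 5644 and 2834 over all genes. With 2 libraries per fraction, small differences such as those of Mdm2, Sesn2 and Phlda3 are near what the test resolves, and the 9 counts of Perp in PDGFRa-only cells limit its ratio.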

Other observations

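Trp53cor1, a long noncoding RNA gene beside Cdkn1a that is known as a p53 target, had 0 and 4 counts in the PDGFRa-only, 18 and 22 in the double-positive and 47 and 32 in the PECAM1-only libraries. Its PECAM1-only level was 16.5 times the PDGFRa-only level (counting interval 6.20 to 62.1, edgeR adjusted p = 1.50e-05), while Cdkn1a itself did not pass the test in that comparison. Between double-positive and PECAM1-only cells its log2 fold change was -0.92 (adjusted p = 0.0922). Its PDGFRa-only counts all came from replicate 2, and the call held without either library of that fraction (adjusted p = 1.95e-05 without replicate 1 and 2.79e-06 without replicate 2).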
